A study of Mus musculus with 8 samples.

Results

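The PYHIN and PHF11 families are 2 groups of neighbouring, interferon-inducible mouse genes, described here in activated CD8+ T cells with and without the kinase LKB1. The members were matched by exact symbol in the deposited count tables, and all 9 were found among 24421 genes: the PYHIN genes Pyhin1, Mndal, Ifi203, Ifi204 and Aim2 of chromosome 1, and the PHF11 genes Phf11a, Phf11b, Phf11c and Phf11d of chromosome 14. The families were chosen by the log2 fold changes of this same contrast, in which Pyhin1 and Phf11b had been seen among the genes with the largest falls in LKB1-deficient cells. Their differences between the groups are therefore given as a description with standard errors. How many members the fit over all genes called is given beside the same share over all genes, and nothing is read from those calls.

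PYHIN proteins join an N-terminal pyrin domain, which binds other pyrin domains, to a C-terminal HIN domain that binds DNA. AIM2 is the member best known as a sensor: on DNA in the cytosol it recruits the adaptor ASC, encoded by Pycard, and so activates caspase-1, while MNDAL, IFI203, IFI204 and PYHIN1 are found mainly in the nucleus. PHF11 proteins carry a PHD finger, a zinc-binding fold of chromatin proteins. Human PHF11 has been tied to NF-kB-driven transcription of T helper 1 cytokine genes and to the resection of broken DNA ends.

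The data are 3' RNA-seq libraries of mouse CD8+ T cells, made from naive T cells stimulated for 48 hours on plate-bound antibodies against CD3 and CD28. There were 4 control libraries (LKB1 wild type) and 4 LKB1-deficient libraries. Mouse age, the promoter that drove the deletion, the deleted part of Stk11 and whether the replicates came from separate animals were not stated in the labels, so errors measure only the spread between these samples, which may be technical. Values are CPM, counts scaled to a common library size with TMM factors, as mean ± SD with n = 4 per group, and differences are log2 fold changes of LKB1-deficient against control.

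The control libraries held 7090252 to 12211930 counts in genes and the LKB1-deficient libraries 3454388 to 6356125. Stk11, which encodes LKB1, was at 67.7 to 101 CPM in the control and 64.3 to 107 CPM in the LKB1-deficient libraries, and such 3' tags need not lie in the deleted part, so they do not check the genotype labels. The T cell markers were present in every library, at a summed 4233 to 4718 CPM in the control and 2419 to 3631 CPM in the LKB1-deficient libraries over 10 genes, of which 3 fell (Cd3d, Cd3g and Cd8a) and none rose. The 16 myeloid and dendritic cell markers, a list examined because PYHIN genes are high in those cells, summed to 6.87 to 9.9 CPM in the control and 5.38 to 11.8 CPM in the LKB1-deficient libraries, with Csf3r and S100a9 at 0 throughout. The 9 B cell markers summed to 7.63 to 12.8 and 5.53 to 11 CPM, with Pax5 at 0; 1 of these genes was tested, and it fell. Klra8 and Klra4 of the 6 NK and gamma-delta T cell markers found were at 0, and that list summed to 66.3 to 116 and 83.9 to 154 CPM. Eomes, which was not called, made up nearly all of that sum (means of 85.8 in control and 116.5 CPM in LKB1-deficient libraries). Klrb1c was at 0.134 and 1.21 CPM without overlap between the groups and was not tested by edgeR. DESeq2 called 1 gene of this list higher and 0 lower. The CD4 and regulatory T cell markers summed to 13.8 to 18.4 against 21.7 to 33.7 CPM over 5 genes, with 1 of 2 tested higher. The mast cell and basophil markers summed to 9.07 to 12.2 against 14.6 to 39.9 CPM over 8 genes, with 2 of 5 tested higher. Neither sum overlapped between the groups, the LKB1-deficient libraries being higher, and their part in the results was not tested. In the CD4 list the gene called was Ikzf4 (means of 8.91 in control and 23.2 CPM in LKB1-deficient libraries). Means were lower for Cd4 (0.55 and 0.25), Zbtb7b (5.4 and 4.77) and Cd40lg (1.41 and 1.23 CPM), and Foxp3 was at 0.073 and 0.255 CPM. In the mast cell list Gata2 and Il1rl1 were called, Fcer1a was near 0 (0.144 and 0.135 CPM) and the other means were higher. The replicates 1 of both groups have sample identifiers that start with ET, and all others start with EU.

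The promoters of the members are shown first, because both families are interferon-inducible and hold near-identical copies, which bears on what each count measures. For the 8 members with an entry, the 100 bases before the annotated start are given 5′ to 3′ on the gene's own strand, from RefSeq on GRCm38.p6. Capitals mark the core of the interferon-stimulated response element (ISRE core), spelled GAAA, then any 2 bases, then GAAA, and searched on both strands of 300-base windows that run from 250 bases before to 50 bases after each start. Pyhin1 is listed there under its current name Ifi209, and Mndal and Ifi203 each have 2 starts, of which the start whose window holds GAAATCGAAA is shown. Mndal is shown at chr1:173880188-173880287 (minus strand), Ifi203 at chr1:173942493-173942592 (minus), Phf11a at chr14:59297523-59297622 (minus), Phf11b at chr14:59341331-59341430 (minus), Phf11c at chr14:59393513-59393612 (minus), Phf11d at chr14:59365491-59365590 (minus), Pyhin1 at chr1:173630759-173630858 (plus) and Aim2 at chr1:173420504-173420603 (plus).
Mndal: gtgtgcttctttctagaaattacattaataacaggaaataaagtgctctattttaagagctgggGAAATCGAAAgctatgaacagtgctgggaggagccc
Ifi203: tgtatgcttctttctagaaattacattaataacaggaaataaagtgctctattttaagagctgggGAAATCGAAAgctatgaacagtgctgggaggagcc
Phf11a: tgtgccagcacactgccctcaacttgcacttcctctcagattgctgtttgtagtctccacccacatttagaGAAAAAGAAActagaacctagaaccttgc
Phf11b: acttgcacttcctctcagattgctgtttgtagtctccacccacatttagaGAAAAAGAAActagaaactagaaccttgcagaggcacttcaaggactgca
Phf11c: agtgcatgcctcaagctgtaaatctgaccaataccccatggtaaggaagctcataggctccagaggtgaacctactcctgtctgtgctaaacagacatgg
Phf11d: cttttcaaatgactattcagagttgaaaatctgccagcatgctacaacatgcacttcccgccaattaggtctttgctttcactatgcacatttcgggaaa
Pyhin1: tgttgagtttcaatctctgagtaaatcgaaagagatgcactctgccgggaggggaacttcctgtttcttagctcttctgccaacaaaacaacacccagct
Aim2: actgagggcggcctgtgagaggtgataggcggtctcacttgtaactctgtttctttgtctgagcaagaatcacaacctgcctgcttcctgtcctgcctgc

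Of the 9 members, 8 had an entry in the promoter table, with 10 windows in all. The ISRE core was found in a window of each of 4 members, Mndal, Ifi203, Phf11a and Phf11b, and in 3.44% of all 32851 promoter windows. The member figure counts genes over all their starts and includes near-identical copies, so it is not directly comparable with the share of windows. The match began 36 bases before the start in Mndal, 35 in Ifi203, 29 in Phf11a and 50 in Phf11b, and the other Mndal start held a match on the opposite strand, TTTCTCTTTC. The window of the other Ifi203 start held no match. The windows of Pyhin1, Aim2, Phf11c and Phf11d held no match. TTCNNNGAA, the letters of the gamma-activated site of interferon signalling, was in none of the member windows and in 8.3% of all. The 300-base windows around the Mndal and Ifi203 starts shown were identical at 282 of 289 aligned bases (97.6%), and those of Phf11a and Phf11b at 274 of 279 (98.2%).

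Copies this close can also share reads, and the way the authors counted reads that fit several copies is not given in the sources used here. In the last 500 bases of the longest protein-coding transcript of each gene (GENCODE vM21), windows of 50 bases were compared with the transcripts of all other genes; the read length is not given either. The share of windows found in another gene was 66.3% for Phf11c, 63.4% for Pyhin1 (all with Ifi214), 42.6% for Phf11b, 32.8% for Phf11a (these PHF11 genes with each other and with Phf11d) and 22% for Mndal (with Ifi205 and Ifi211), and 2.2% or less for Ifi204, Aim2, Phf11d and Ifi203. On GRCm38, GENCODE places the protein-coding genes Aim2 (173350879 to 173466040, plus strand), Pyhin1 (173630917 to 173647928, plus), Ifi204 (173747293 to 173766943, minus), Mndal (173849126 to 173942491, minus) and Ifi203 (173920407 to 173942672, minus) on chromosome 1, so that the Mndal gene overlaps Ifi203. On chromosome 14 it places Phf11a (59276913 to 59297522), Phf11b (59320964 to 59341351), Phf11d (59347407 to 59365470) and Phf11c (59380833 to 59395381), all on the minus strand. The RefSeq promoter windows shown for Mndal, Aim2 and Phf11c lie inside these GENCODE spans and not at their 5′ ends. The starts of these genes thus differ between the annotations, and the Aim2 and Phf11c windows without a match are not at the GENCODE starts. For Ifi203, the start not shown lies at the 5′ end of its GENCODE span, and the start shown lies inside that span. Of 451 windows each, 242 of Phf11c, 141 of Phf11a and 136 of Phf11b also occurred in Phf11d transcripts, so reads of these genes may fit Phf11d. Values of all but Ifi204 and Aim2 are thus uncertain as to which copy they count. Per gene count there were 2.92 to 3.5 multi-place alignments among controls and 2.21 to 2.65 among LKB1-deficient libraries, and their part in the results was not tested.

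The PYHIN genes other than Aim2 were lower in LKB1-deficient cells where they could be measured, and Aim2 was not. Mndal, Ifi203 and Pyhin1 were each between 3.59- and 3.87-fold lower in LKB1-deficient cells, and Aim2 was 2.13-fold higher. Phf11a and Phf11b were 3.96- and 4.19-fold lower and Phf11c 1.73-fold lower. In bulk samples fewer cells that express a gene and less RNA per cell cannot be told apart.

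Mndal, named for its likeness to the human myeloid nuclear differentiation antigen, was at 587, 502, 229 and 209.6 CPM in control replicates 1 to 4 and at 68, 145, 92.6 and 121 CPM in LKB1-deficient replicates 1 to 4. Every LKB1-deficient library was below every control library, and control replicates 1 and 2 stood above control replicates 3 and 4. The mean went from 382 ± 191 to 106 ± 33.4 CPM, a log2 fold change of -1.84 ± 0.37 (SE).

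Ifi203, which encodes a nuclear PYHIN protein, was at 206, 154, 76.5 and 48.5 CPM in the control libraries and at 15.2, 53, 27.4 and 30.4 CPM in the LKB1-deficient libraries. The groups overlapped through LKB1-deficient replicate 2, which lay above control replicate 4. The log2 fold change was -1.95 ± 0.47 (SE), from means of 121 ± 72.1 and 31.5 ± 15.8 CPM.

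Pyhin1, also called IFIX, is a nuclear DNA-binding PYHIN gene. It was at 28.3, 28.8, 11.3 and 11.4 CPM in the control libraries and at 2.81, 6.4, 6.92 and 4.3 CPM in the LKB1-deficient libraries. The groups did not overlap, and control replicates 1 and 2 again held the higher values. The log2 fold change was -1.93 ± 0.40 (SE).

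The ratio of Mndal to Ifi203 within a library ranged from 2.85 to 4.32 among the controls and from 2.74 to 4.48 among the LKB1-deficient libraries, and that of Mndal to Pyhin1 from 17.4 to 20.8 and from 13.4 to 28. Both ranges overlapped between the groups, while the level of Mndal itself ran from 68 to 587 CPM. The proportions of these 3 genes thus varied less across the libraries than the level of Mndal did. The families were chosen by this contrast, and the Mndal gene overlaps Ifi203. The part of reads shared between copies in these ratios was not tested.

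Aim2, the inflammasome sensor, was at 31.4, 57.8, 26.8 and 15.4 CPM in the control libraries and at 22.8, 80.3, 67 and 110.3 CPM in the LKB1-deficient libraries. LKB1-deficient replicate 1 lay within the control range and the other LKB1-deficient libraries above it. The mean was 32.8 ± 17.9 in the control and 70.1 ± 36.4 CPM in the LKB1-deficient libraries, a log2 fold change of 1.09 ± 0.46 (SE). This value was 0.79 with LKB1-deficient replicate 4 left out, 0.47 with replicates 2 and 4 of that group left out, and 1.51 with control replicate 2 left out.

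**Figure D1:**
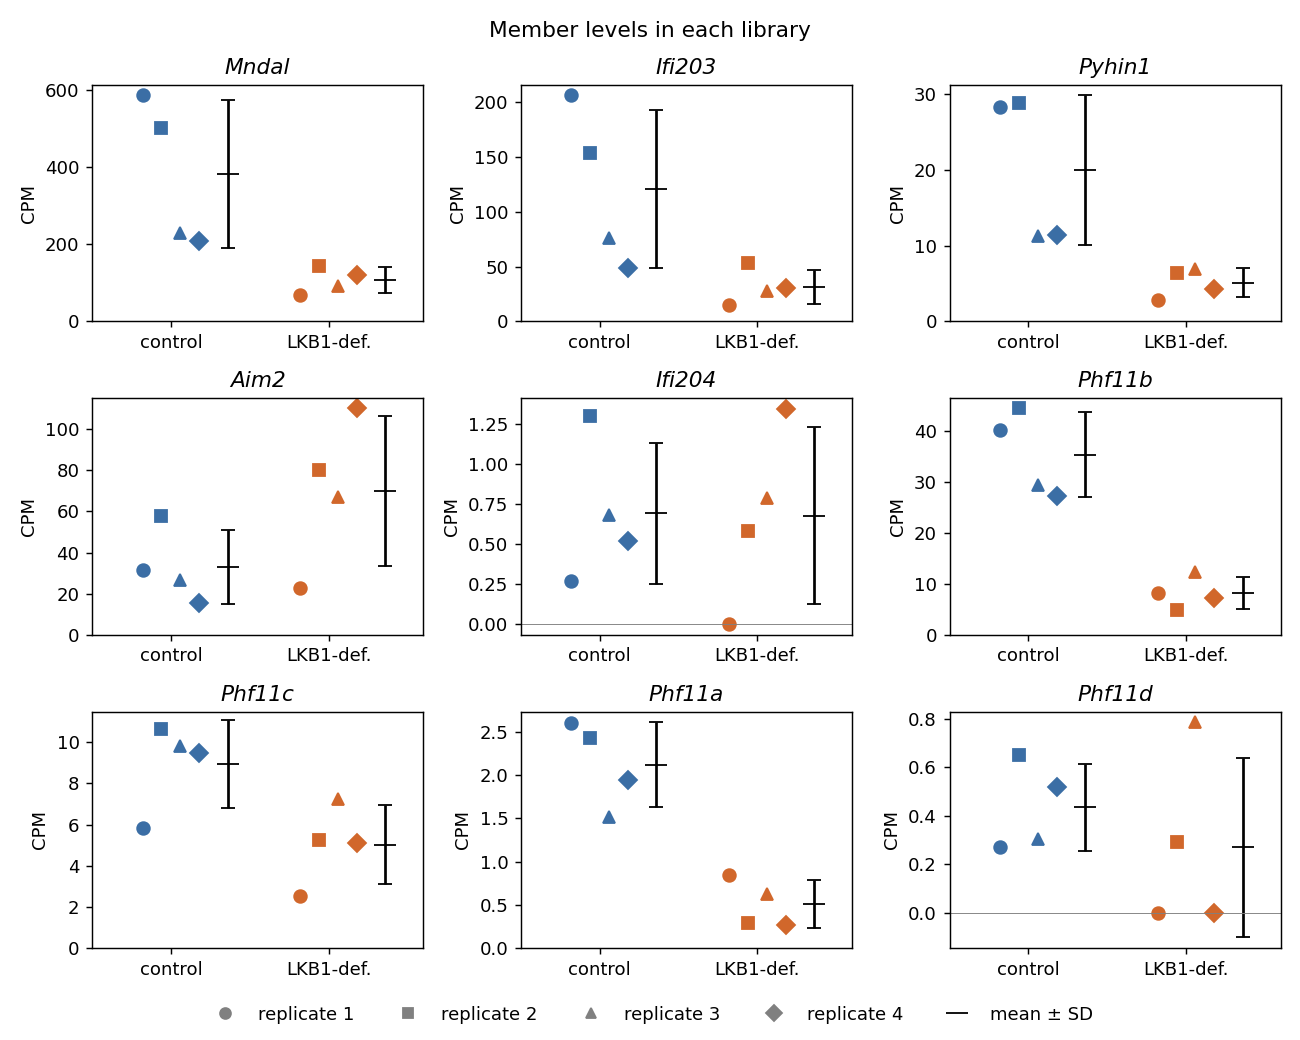
Level of each member in each library, in CPM on a linear axis with 1 panel per gene; marker shapes give the replicate number and bars the mean ± SD of 4 libraries. Mndal, Ifi203 and Pyhin1 spread widely among the controls, Phf11b separates the groups (27.4 to 44.5 against 4.95 to 12.4 CPM), and Aim2 is higher in 3 of the 4 LKB1-deficient libraries.

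Aim2 took up a larger part of the family in the LKB1-deficient libraries, where its own mean was higher and those of Mndal, Ifi203 and Pyhin1 were lower. The sum holds genes chosen by this contrast, so the shares are a description. Aim2 made up 3.68% to 7.77% of the summed CPM of the 5 PYHIN members in the control libraries and 20.9% to 41.3% in the LKB1-deficient libraries. Mndal made up 66.5% to 73.4% and 45.2% to 62.5%. The summed level of the 5 genes was 853, 744, 344 and 286 CPM in control replicates 1 to 4 and 109, 285, 195 and 267 CPM in LKB1-deficient replicates 1 to 4, so that control replicate 4 and LKB1-deficient replicate 2 had nearly the same sum with a different make-up.

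Ifi204, the mouse relative of human IFI16, was at the limit of detection, with 3, 16, 9 and 4 counts in the control and 0, 2, 5 and 5 counts in the LKB1-deficient libraries. It was under the count filter and was not tested. A count of 0 in LKB1-deficient replicate 1 allows up to 0.843 CPM, a limit of 3 counts that covers counting error only, and the highest value in any library was 1.35 CPM.

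**Figure D2:**
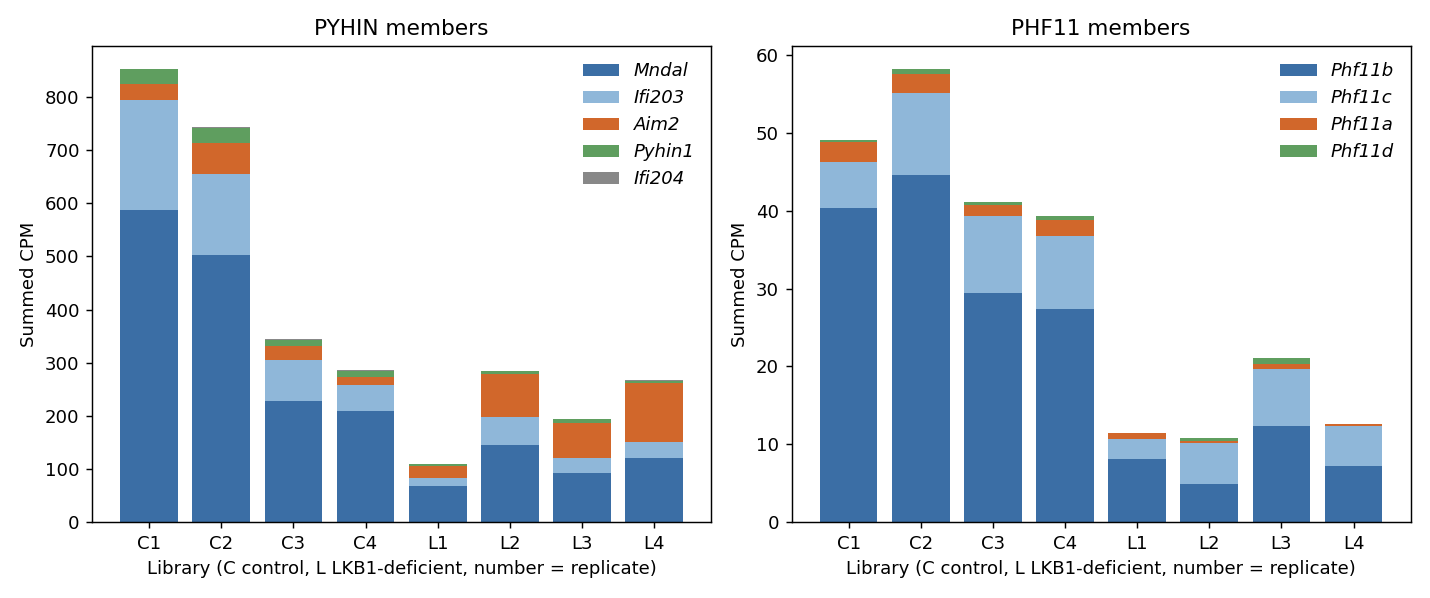
Summed CPM of the PYHIN members (left) and the PHF11 members (right) in each library, with bars split by gene and starting at 0. Mndal and Phf11b are the largest parts in the control libraries, and Aim2 makes up 20.9% to 41.3% of the PYHIN sum in the LKB1-deficient libraries.

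Phf11b was the most counted PHF11 gene. It was at 40.4, 44.5, 29.5 and 27.4 CPM in the control libraries and at 8.15, 4.95, 12.4 and 7.26 CPM in the LKB1-deficient libraries. The groups were well apart: the lowest control library, at 27.4 CPM, was above the highest LKB1-deficient library, at 12.4 CPM. The mean went from 35.4 ± 8.33 to 8.19 ± 3.12 CPM, a log2 fold change of -2.07 ± 0.27 (SE), the smallest SE of any member tested.

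Phf11a was at 2.6, 2.43, 1.51 and 1.94 CPM in the control libraries (15 to 30 counts) and at 0.843, 0.291, 0.629 and 0.269 CPM in the LKB1-deficient libraries (1 to 4 counts). The groups did not overlap, with a log2 fold change of -1.99 ± 0.42 (SE). Phf11a passed the count filter only through the control libraries.

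Phf11c was at 5.83, 10.6, 9.82 and 9.46 CPM in the control libraries and at 2.53, 5.24, 7.23 and 5.11 CPM in the LKB1-deficient libraries. The groups overlapped, since control replicate 1 lay below LKB1-deficient replicate 3, and the log2 fold change was -0.79 ± 0.30 (SE). Phf11c was not called in the fit over all genes, but was with total count or upper quartile scaling, a replicate block or the identifier prefix as a term (log2 fold changes of -0.96 to -0.83), and without control replicate 1 or LKB1-deficient replicate 3 (-0.95 and -1.06). The ratio of Phf11b to Phf11c within a library was 2.89 to 6.92 among the controls and 0.944 to 3.22 among the LKB1-deficient libraries. Phf11d had 3 to 8 counts in the control and 0, 1, 5 and 0 counts in the LKB1-deficient libraries, was under the filter and was not tested. The counts of 0 in LKB1-deficient replicates 1 and 4 allow up to 0.843 and 0.807 CPM.

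Per kilobase of the longest annotated transcript, the mean control level was highest for Mndal (188 ± 94.4 CPM per kilobase), followed by Ifi203 (32.3 ± 19.2), Phf11b (29.9 ± 7.03), Aim2 (11.6 ± 6.31), Pyhin1 (5.8 ± 2.88), Phf11c (2.58 ± 0.615) and Phf11a (1.57 ± 0.365), with Ifi204 and Phf11d at 0.301 and 0.146. Of these neighbours in the order, Ifi203 and Phf11b differed by less than their spread, as did Aim2 and Pyhin1. In the LKB1-deficient libraries Mndal (52.6 ± 16.5 CPM per kilobase) was followed by Aim2 (24.7 ± 12.8), Ifi203 (8.38 ± 4.2) and Phf11b (6.92 ± 2.64), so that Aim2 moved from the fourth to the second place. Libraries of 3' tags count transcript ends, so a level per length understates long transcripts.

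Of the 9 members 7 passed the filter on low counts, and 5 of these were lower at an adjusted p of 0.05 in edgeR's quasi-likelihood test: Mndal, Ifi203, Pyhin1, Phf11a and Phf11b. The same test called 10.1% of the 10396 genes tested lower (1051 genes) and 12.4% higher (1286), a split that became 1576 lower and 829 higher with total count scaling and 1446 and 1023 with upper quartile scaling. Among members 0 were called higher by edgeR and 0 by DESeq2, and 1 (Aim2) was higher at an unadjusted p under 0.05 in edgeR. In 4 members (Mndal, Pyhin1, Phf11a and Phf11b) all LKB1-deficient libraries lay below all control libraries, as they did in 14.1% of the genes tested (26.1% in either direction). The members were chosen with this contrast known, so nothing is read from these counts. The summed level of the 4 PHF11 genes was 39.3 to 58.3 CPM in the control and 10.8 to 21.1 CPM in the LKB1-deficient libraries. Of the 5 called members, only Phf11b kept its call without both LKB1-deficient replicates 2 and 4, the libraries farthest from the controls in an earlier analysis, when 98 genes were called lower in all. The log2 fold changes of the other 4 were then -2.24 for Mndal, -2.48 for Ifi203, -1.95 for Pyhin1 and -1.55 for Phf11a, with 2 LKB1-deficient libraries left.

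Mndal, Ifi203, Pyhin1 and Phf11b were lower in both sets of sample identifiers, with unequal size, while the direction of Aim2 differed. In the ET libraries, 1 per group and so without a test, the LKB1-deficient to control ratio was 0.116 for Mndal, 0.0736 for Ifi203, 0.0994 for Pyhin1, 0.202 for Phf11b and 0.725 for Aim2. In the EU libraries, 3 per group, it was 0.38 for Mndal, 0.397 for Ifi203, 0.342 for Pyhin1, 0.243 for Phf11b and 2.58 for Aim2. Ifi203 was not called in EU libraries alone (log2 fold change -1.35) or with LKB1-deficient replicate 4 left out (-1.94, beside -1.95 with all libraries). Aim2 was thus lower than its control in the ET pair and higher in the EU libraries.

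The tables hold 7 further symbols listed as PYHIN genes, 4 of them under older names, a list drawn up with earlier results known. Of these BC094916 matched no symbol or synonym in RefSeq or GENCODE vM21, so that its place in the family was not checked. Ifi202b and Ifi205 had 0 counts in all 8 libraries, and AI607873 and Pydc3 were at no more than 0.582 and 1.52 CPM in any library and were not tested. Pydc4, now Ifi213, fell from 3.95 ± 0.869 to 0.849 ± 0.713 CPM (log2 fold change -2.16 ± 0.45, edgeR adjusted p = 0.0118; 0.0552 without both LKB1-deficient replicates 2 and 4). BC094916 fell from 5.84 ± 2.46 to 2.19 ± 1.02 CPM (edgeR adjusted p = 0.0439), which passed with control replicate 3 left out and missed with any other single library left out (highest adjusted p 0.103). Mnda, now Ifi211, was at 3.57 ± 1.82 and 1.22 ± 0.793 CPM (edgeR adjusted p = 0.0612; 0.0396 by DESeq2), and its GENCODE gene overlaps that of Mndal. None of the 3 tested was higher, at an unadjusted p under 0.05 or by DESeq2 either (0 in each). These 3 passed the count filter through their control libraries, so a fall was the direction that the filter favoured. Their counts were 28 to 56 in control against 1 to 7 in LKB1-deficient libraries for Pydc4, 37 to 92 against 3 to 17 for BC094916, and 18 to 76 against 2 to 15 for Mnda. Of the 6 symbols with a RefSeq promoter, 5 held the ISRE core, among them Pydc4 and Mnda, and also Ifi205, which had no count.

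The genes around the families were compared next, over all 28 other annotated genes of the tables within 250000 bases of each family's span. On chromosome 1, where olfactory receptor genes flank the PYHIN cluster, none of them passed the filter. On chromosome 14, 4 passed, with a median log2 fold change of -0.23. Setdb2, a SET domain gene next to Phf11c, was at 9.56 ± 5.63 and 8.75 ± 3.59 CPM (edgeR adjusted p = 0.805), and its sign turned without control replicate 2 or LKB1-deficient replicate 3. Rcbtb1 was at 33.4 ± 6.09 and 38.9 ± 11.2 CPM (edgeR adjusted p = 0.471), with its sign turned without both LKB1-deficient replicates 2 and 4. Cab39l, which encodes a form of the LKB1 partner MO25, was at 54.4 ± 5.45 and 43.8 ± 4.9 CPM (edgeR adjusted p = 0.106). Cdadc1 fell from 27.2 ± 2.13 to 20.9 ± 1.27 CPM (log2 fold change -0.38 ± 0.12, edgeR adjusted p = 0.0458), and the call did not hold with any 1 of the 8 libraries left out (highest adjusted p 0.117). The neighbour Gm6904, a PHF11 pseudogene in RefSeq, was at 0.363 ± 0.137 and 0.0393 ± 0.0786 CPM and was not tested.

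**Figure D3:**
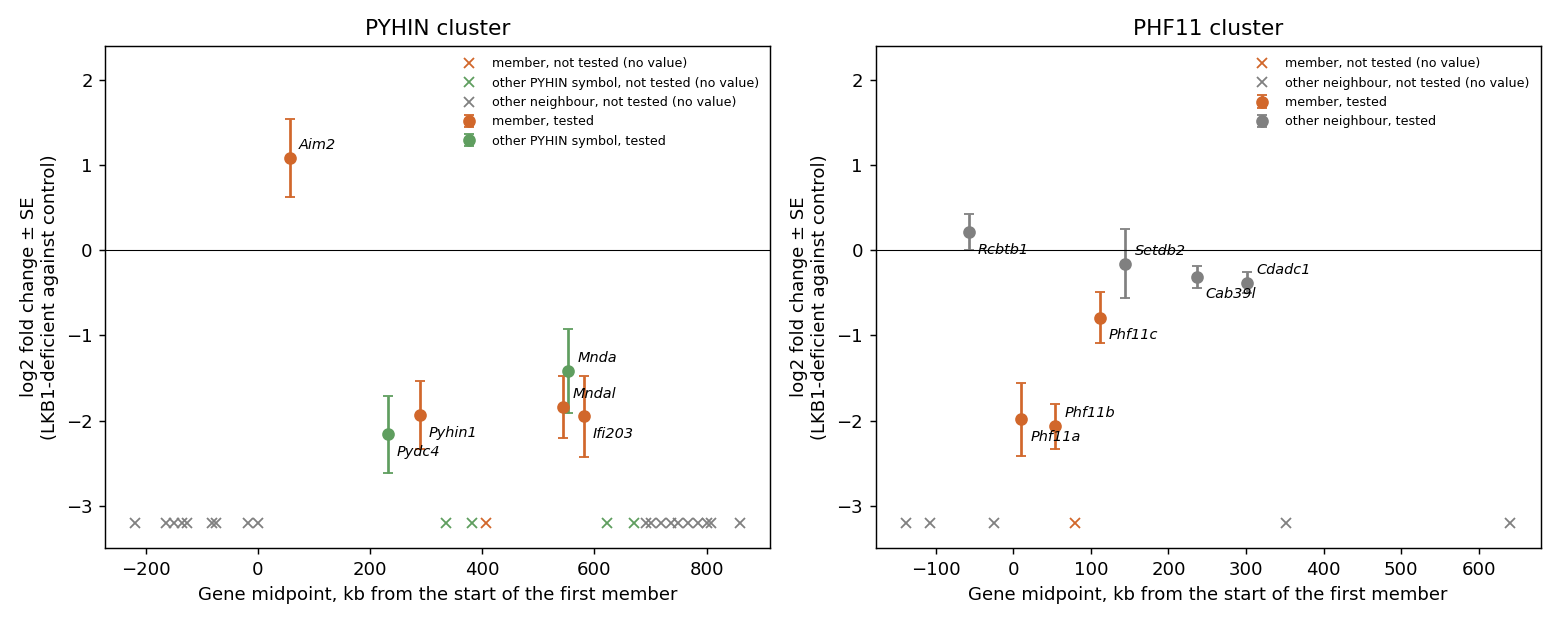
Log2 fold change ± SE of tested genes against the distance of the gene's midpoint from the start of the first member, in kilobases, for the PYHIN cluster (left) and the PHF11 cluster (right). Crosses at the bottom mark genes without a value, Aim2 at 1.09 stands opposite to the other tested PYHIN symbols with a position (-2.16 to -1.41), and Phf11a and Phf11b lie near -2 while the 4 tested neighbours of the PHF11 genes lie between -0.38 and 0.21.

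Genes that work with AIM2 were examined from a list of inflammasome partners, of which 8 were tested; 3 fell and none rose (0 at an unadjusted p under 0.05 and by DESeq2). Pycard, encoding the adaptor ASC, was at 142, 100.1, 126 and 159 CPM in the control and at 49.2, 46, 59.9 and 40.9 CPM in the LKB1-deficient libraries, without overlap. Its log2 fold change was -1.42 ± 0.18 (edgeR adjusted p = 0.00317), opposite in sign to that of Aim2. Gsdmd, encoding the pore-forming gasdermin D, fell from 25.3 ± 3.73 to 15.7 ± 0.383 CPM (edgeR adjusted p = 0.012; 0.0832 without both LKB1-deficient replicates 2 and 4). Casp4, named after its values were seen, fell from 18.3 ± 3.41 to 10.4 ± 3.93 CPM (edgeR adjusted p = 0.0352). Its groups overlapped, with LKB1-deficient replicate 2 at 16.3 and control replicate 3 at 15.7 CPM. Only Pycard and Gsdmd of the list were called without control replicate 1, 3 or 4, or without LKB1-deficient replicate 1 or 4. The median of the tested partners was -0.59, beside 0.00 over all genes tested.

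Of 22 tested genes of nucleic acid sensing and the STING pathway, 6 fell, 1 rose and 15 did not pass, with a median of -0.10. Zbp1, a sensor of Z-form nucleic acids, fell from 72.2 ± 4.77 to 30.8 ± 5.78 CPM (edgeR adjusted p = 0.00317), and Ikbke, a kinase of the interferon-inducing pathway, from 28.2 ± 3.91 to 17.1 ± 0.386 CPM (edgeR adjusted p = 0.00881). Mb21d1, encoding the cytosolic DNA sensor cGAS, rose from 46.9 ± 4.63 to 87.4 ± 19.8 CPM (log2 fold change 0.90 ± 0.17, edgeR adjusted p = 0.00925), with no overlap between the groups. The calls of Ikbke and Mb21d1 ended without both LKB1-deficient replicates 2 and 4 (adjusted p = 0.0685 and 0.0719).

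Interferon signalling was examined because it induces both families. Of 17 tested genes 4 fell (among them Irf7 and Irf1), 1 rose and 12 did not pass, with a median of -0.35; 3 passed in place of 5 when any single control library was left out. Irf7 fell from 32.5 ± 1.63 to 11.1 ± 1.72 CPM and Irf1 from 211 ± 14.1 to 120.4 ± 16.6 CPM (edgeR adjusted p = 0.00151 and 0.00561). Ifng, the gene of type II interferon, rose from 870 ± 294 to 2749 ± 897 CPM (edgeR adjusted p = 0.0088; 0.051 without both LKB1-deficient replicates 2 and 4). Of 32 tested interferon-stimulated antiviral genes 11 fell, 1 rose and 20 did not pass, with a median of -0.47; in place of 12 genes, 7 passed in either direction when LKB1-deficient replicate 2 was left out, and also 7 when LKB1-deficient replicate 4 was. Rtp4, a chaperone of the interferon response, fell from 17.2 ± 2.08 to 7.1 ± 1.02 CPM, Mx1, an antiviral GTPase, fell from 26.8 ± 4.64 to 7.22 ± 2.76 CPM, and Ifitm3, a membrane protein that blocks virus entry, rose from 11.8 ± 5.63 to 50.1 ± 30.7 CPM (edgeR adjusted p = 0.00341, 0.00341 and 0.0168). The call of Ifitm3 ended without LKB1-deficient replicate 4 (adjusted p = 0.057).

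Of the 15 genes of NF-kB and DNA end resection, processes tied to human PHF11, 1 fell and 1 rose, with a median of 0.14. Rpa3, a subunit of the single-strand DNA binding protein RPA, fell from 161 ± 16.3 to 118 ± 10.7 CPM (edgeR adjusted p = 0.0328), and Rad50, of the MRN end-processing complex, rose from 243 ± 92.8 to 587 ± 276 CPM (edgeR adjusted p = 0.0417). Neither call held when any of control replicates 1, 3 and 4 or LKB1-deficient replicates 2 and 4 was dropped (highest adjusted p 0.0956 for Rpa3 and 0.12 for Rad50).

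**Figure D4:**
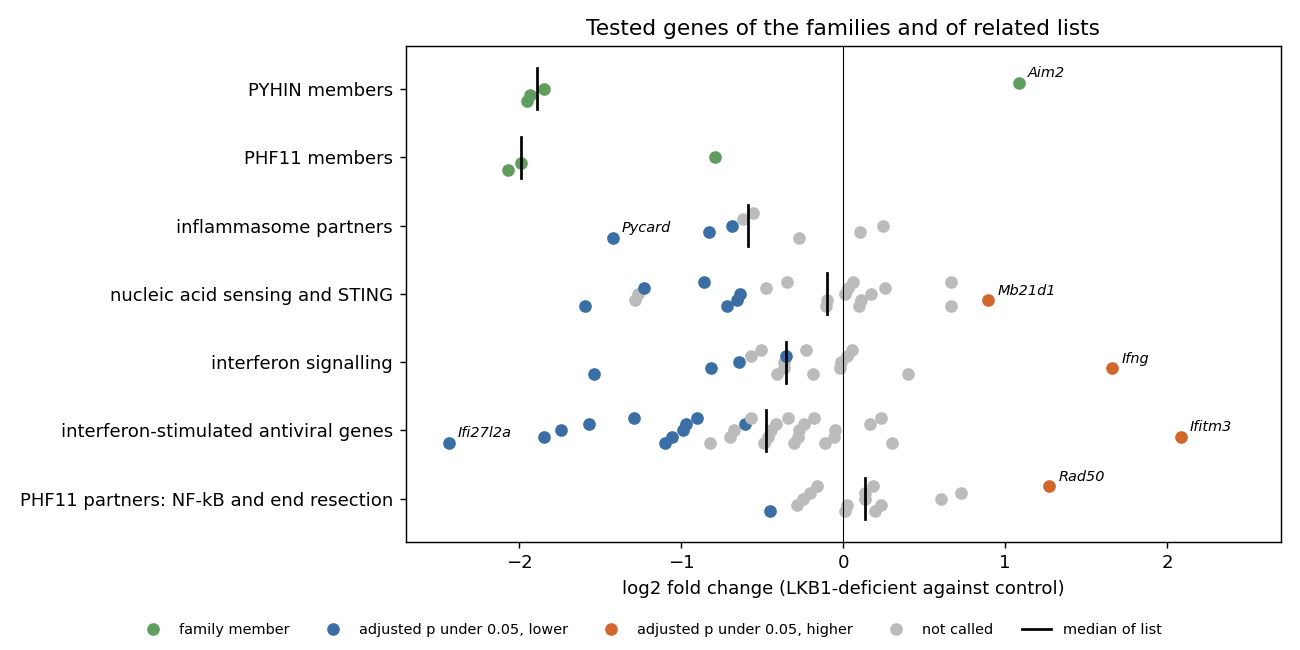
Log2 fold change of every tested gene of the families and of 5 related lists, 1 point per gene, spread vertically for legibility, with a bar at each list's median. Family members are green and not coloured by call; in the other lists blue and orange mark genes lower and higher at an adjusted p of 0.05, with Pycard at -1.42, Mb21d1 at 0.90 and Ifng at 1.66.

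The genes nearest in profile to the most abundant member of each family were found by the root mean square difference, over the 8 libraries, of log2 CPM centred on each gene's mean, among 7734 genes outside the families. For Mndal these were Gbp2 (0.38), Gbp9 (0.41), Ms4a4b (0.42), Ms4a4c (0.43) and Bcl2l11 (0.47), beside a median of 1.07 over all. Its own relatives Ifi203 (0.25) and Pyhin1 (0.29) were closer, Phf11b was at 0.65 and Aim2 at 1.48. For Phf11b the nearest were Klrk1 (0.20), Dpp4 (0.28), Itm2a (0.30), Klrd1 (0.30) and Xdh (0.30), beside a median of 1.16; Phf11a was at 0.37 and Phf11c at 0.84. Nearness in profile fixes that these genes share the direction of the member they were matched to. Gbp2, an interferon-inducible guanylate-binding GTPase, was at 446 ± 169 and 117 ± 16.3 CPM, and Ms4a4b, a membrane protein of T cells, at 867 ± 346 and 322 ± 75.5 CPM. Klrk1, which encodes the activating receptor NKG2D, was at 136 ± 23.7 and 39 ± 16.8 CPM, and Klrd1, which encodes CD94, at 182 ± 41.9 and 50.3 ± 33.9 CPM. The lists of Mndal and Phf11b share no gene.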

How the data were processed

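The 8 libraries were grouped by their titles. Per the labels' protocols, barcoded poly-T primers were used for reverse transcription and the samples were pooled into strand-specific 3' libraries; molecular identifiers are not mentioned, and PCR copies may then count as reads. What the authors deposited is a table of unnormalized read counts for each library, with a symbol per gene. Per the submitters' processing notes reads were aligned with STAR to mm10; the counting program, its annotation and all versions were not stated there. The 5 lines that name no gene were left out of library sizes, and reads outside genes or ambiguous between genes were 12.7% to 17.9% of the sum of these reads and the gene counts, with multi-place alignments left out of that sum.

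Counts were fitted in R 4.3.3 with edgeR 4.0.16 (filterByExpr minimum count 10, TMM, robust quasi-likelihood test, no covariates, Benjamini-Hochberg adjustment over 10396 genes). An SE is the absolute log2 fold change over the square root of F. The test was checked on simulated counts. All pairs of replicates differed by more than sampling noise (chi-square over its degrees of freedom 11.6 or more). Members and lists were chosen with earlier results of these data known. Named genes are the members, further PYHIN symbols, tested neighbours, the 2 smallest p per list and direction, and the 5 nearest profiles (mean CPM of at least 10, log2 CPM with prior count 2). Coordinates and lengths are from GENCODE vM21 on GRCm38 (mm10) and promoters from RefSeq on GRCm38.p6. A result on 1 gene is not reported here. Alternatives were DESeq2 1.42.0, limma-voom 3.58.1, other scalings, filters and thresholds, a replicate block, the identifier prefix, thinning, length correction and left-out libraries.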

Additional observations from a re-analysis of the deposited data

Results flagged for a closer look

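In 68 groups of 4 libraries checked, 3 had a library set apart from the other 3 by more than Dixon's 95% critical value, and chance flags about 1 in 20 groups. Mb21d1 was at 53.8 CPM in control replicate 2 and 43.7 to 45.4 CPM in the other controls. Irf7 was at 30.1 CPM in control replicate 1 and 33.2 to 33.4 CPM in the others. Cdadc1 was at 24 CPM in control replicate 4 and 28.1 to 28.3 CPM in the others. No member had such a library.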

How the results depend on the processing

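Depth limits Ifi204, Phf11d, Phf11a and the further PYHIN symbols, and with 4 libraries per group a few libraries decide many calls. The genes called lower (1051) came to 666 in EU libraries only, 98 without both LKB1-deficient replicates 2 and 4, 189 at an adjusted p of 0.01, and 441 to 1353 with 1 library left out (441 to 668 for replicates 1, 3 and 4 of the control and 2 and 4 of the LKB1-deficient group); those called higher (1286) came to 829 with total count scaling (1576 lower), 162 without both replicates, 248 at 0.01 and 560 to 1472 with 1 library left out (560 to 710 for control replicates 3 and 4 and LKB1-deficient replicates 2 and 4). Over all genes tested the median difference, 0.00 on the log2 scale, was -0.16 with total count and -0.10 with upper quartile scaling. Of the 5 members called lower, 1 was left without both LKB1-deficient replicates and 1 at 0.01, and 4 to 6 were called with 1 library left out. Aim2 passed as higher without control replicate 2 or without LKB1-deficient replicate 1, and no member did otherwise (0 to 1).

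Same-numbered replicates did not all deviate together (correlations of -0.25, 0.29, 0.30 and -0.09 for replicates 1 to 4). A pair with different numbers, control replicate 3 and LKB1-deficient replicate 1, reached 0.34, so the replicate block is only a check. With the block the 5 members called lower were again called and Phf11c with them (6 in all), and calls were 1 of the further PYHIN symbols (2 without the block), 3 in interferon signalling (5), 0 among PHF11 partners (2) and 0 among neighbours (1). The prefix term gave 1, 3, 1 and 0.

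For the further PYHIN symbols calls were 1 with limma-voom, thinning, length correction or EU libraries only, 0 at a mean CPM of at least 10, without both LKB1-deficient replicates or at 0.01, and 1 to 2 with 1 library left out. Inflammasome partners had 5 calls with DESeq2 or no filter, 1 at 0.01 and 2 to 3 with 1 library left out. Nucleic acid sensing had 1 without both replicates and 4 at 0.01. Interferon signalling had 8 with total count scaling, 2 without both replicates, 3 at 0.01 and 3 to 6 with 1 library left out; the antiviral genes had 4, 4 and 7 to 15 for the last 3 settings. PHF11 partners had 1 with limma-voom or no filter, 0 without both replicates, with length correction or at 0.01, and 0 to 2 with 1 library left out. Neighbours had 2 with DESeq2, 0 with limma-voom, EU libraries only, without both replicates, thinning, length correction or at 0.01, and 0 to 1 with 1 library left out. Signs turned for Rcbtb1 (-0.088 without both replicates) and Setdb2 (-0.46 to 0.33 with 1 library left out, 0.33 lacking control replicate 2, 0.01 lacking LKB1-deficient replicate 3). Where a setting does not itself reduce samples or genes, the cause was not tested.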
